A study of Mus musculus with 2 samples.

Results

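Autophagy is the route by which a cell wraps part of its own cytoplasm in a double membrane, the autophagosome, and delivers it to the lysosome for breakdown. The autophagy genes described here are 37 mouse genes that encode its core machinery, from the kinases that start it to the proteins that select cargo, with both transcription factors Tfeb and Tfe3. Each gene was read from the probe set with the highest mean signal among the probe sets annotated for that gene alone. By this rule 36 of the 37 were measured, out of 18193 genes on the array. The cargo receptor Optn was not analysed here.

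The signals come from neutrophils grown in culture from bone marrow of male C57BL/6 mice that lack miR-223, a microRNA abundant in granulocytes, and from the same culture of wild-type male C57BL/6 mice. In both, blood-forming progenitors were kept for 6 days with SCF, a growth factor for progenitors that carry Kit, and G-CSF, the main cytokine of granulocyte development, and were given cycloheximide, a blocker of translation, at 100 ug/ml for the last 8 min. The cells were therefore matured outside the animal, and both groups carry the cycloheximide exposure. Each genotype was measured on 1 Affymetrix array, so nothing below could be checked against replicates or tested, and the number of arrays limits the precision. The labels do not say whether the cells of a culture came from 1 mouse or several, nor how the miR-223 allele was made.

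Autophagy begins when the Ulk1 kinase complex, held back by mTORC1 in fed cells, becomes active. It then recruits a lipid kinase complex built on Becn1 and Pik3c3, lipid from Atg9 vesicles and Atg2 transfer proteins, and a conjugation system that attaches LC3 and Gabarap proteins to the growing membrane. In the neutrophil lineage autophagy has been linked to the metabolic switch of differentiation, to degranulation and to the release of extracellular traps. Tfeb and Tfe3 enter the nucleus when mTORC1 is inactive and switch on lysosomal and autophagy genes.

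The molecule that separates both genotypes is shown first. The mature sequence below is from the RefSeq records of the GRCm38.p6 assembly, at chrX:96242884-96242905 on the plus strand, within the microRNA gene Mir223. Capitals mark the seed, bases 2 to 8, which pairs with AACUGAC in a target messenger RNA.
mmu-miR-223-3p: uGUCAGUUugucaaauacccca
No probe set on the array was annotated for Mir223, so the knockout itself could not be checked from these values. Transcript sequences were not used here, so the members were not searched for sites of this seed.

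All 36 measured genes counted as expressed, meaning that the mean of log2(intensity + 16) over both arrays was at or above the median of all probe sets, an intensity of 33.9. No autophagy gene reached a 1.5-fold difference in either direction on its brightest probe set. The background on these arrays was 0.691% of 11006 expressed genes at least 1.5-fold higher in the knockout array and 0.391% at least 1.5-fold lower, and at 2-fold, which no autophagy gene reached either, it was 0.0999% and 0.0454%. On the same scale, knockout minus wild type, the 36 differences ran from -0.36 for Tfe3 to 0.50 for Map1lc3a. Their median was 0.066, against -0.00037 over all expressed genes.

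Small differences leaned upwards. Of the 36 genes, 25 were higher and 11 lower in the knockout array, a share of 69.4% higher, against 49.7% of all expressed genes above 0 and 50.1% below. At a lower bar of 1.2-fold, 2 autophagy genes were higher (Map1lc3a and Atg14) and 1 was lower (Tfe3), or 5.56% and 2.78%, with backgrounds of 7.09% and 4.09% of expressed genes. The higher count depended on the setting. It was 4 of 29 genes (13.8%, background 7.54%) without probe sets that can match several transcripts, 4 of 36 (11.1%, background 6.49%) with the mean of expressed probe sets, and 1 of 36 (background 4.55%) with a pseudocount of 64. The intensities of Pik3r4 had a ratio of 1.21, but on the log2 scale with the pseudocount it stayed just under 1.2-fold. The middle portion of the differences lay between the quartiles -0.020 and 0.14. Several probe sets of 1 gene give the one available spread, a pooled SD of 0.144 over 5017 genes, which is no replicate error. Of the autophagy genes 26 differed by less than this SD (72.2%), against 65.7% of all expressed genes.

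**Figure D1:**
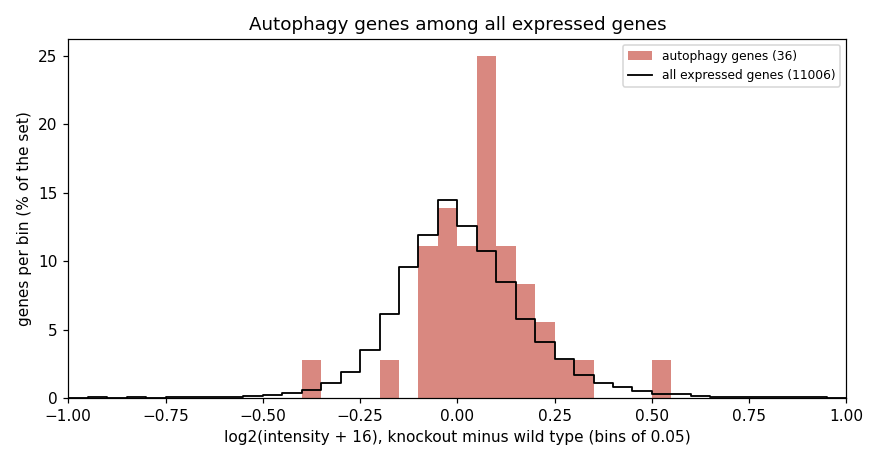
Distribution of the difference in log2(intensity + 16), knockout minus wild type, in bins of 0.05, as a percentage of each set: bars show the 36 autophagy genes and the line shows all 11006 expressed genes. The bars gather just above 0 (median 0.066, against -0.00037), with Tfe3 at -0.36 and Map1lc3a at 0.50 apart from the others; the axis ends at 1 on both sides.

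The initiation complex had all 5 members above 0, with a median of 0.095, and none reached 1.2-fold on its brightest probe set. Over all expressed genes 49.7% were above 0, which is the background for the counts of each group below. Ulk2, a kinase that can stand in for Ulk1, had intensities of 160 on the knockout array and 134 on the wild-type array, a difference of 0.24. Its 2 dimmer expressed probe sets gave larger differences in the same direction, up to 0.64. The dimmest of them, at 85 on the knockout array and 49 on the wild-type array, was past 1.5-fold. Ulk1, the main initiating kinase, stood at 256 on the knockout array and 244 on the wild-type array (0.065), and its other probe set gave 0.29. Rb1cc1, the large scaffold also called Fip200, stood at 314 on the knockout array and 272 on the wild-type array (0.20). Atg13, which links the kinase to the scaffold, gave 0.095, with 0.30 on its other probe set, and Atg101, which stabilises Atg13, gave 0.088 on a single probe set. All expressed probe sets of these 5 genes had the same sign, while the brightest probe sets of Ulk1, Atg13 and Atg101 were inside the spread between probe sets.

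The class III PI3K complexes make the lipid PI3P that marks the site of autophagosome formation, and 5 of their 6 members were higher, with a median of 0.13. The largest difference was in Atg14, the subunit that directs the complex to autophagy. Its intensity was 161 on the knockout array and 124 on the wild-type array, a ratio of 1.30 and a difference of 0.34. Pik3r4, the regulatory subunit Vps15, stood at 241 on the knockout array and 199 on the wild-type array (0.26), and Pik3c3, the catalytic subunit Vps34, at 291 on the knockout array and 259 on the wild-type array (0.16). Each of these 3 subunits rests on 1 expressed probe set, and those of Pik3r4 and Pik3c3 are of classes that can match several transcripts. Without such probe sets 4 of the 6 genes were left, with a median of 0.090.

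Becn1, the scaffold of the lipid kinase complexes, differed less, at 1436 on the knockout array and 1343 on the wild-type array (0.096). Its expressed probe sets ran from -0.0023 to 0.21. Uvrag, which replaces Atg14 in the endosomal form of the complex, gave 0.084. Ambra1, a positive regulator of Becn1 and of Ulk1, had nearly the same intensity on both arrays, 239.7 on the knockout array and 240.7 on the wild-type array (-0.0054).

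The genes for membrane supply and lipid transfer stayed close to 0. Atg9a, the membrane protein of the seed vesicles, had 434 on the knockout array and 441 on the wild-type array (-0.022). Atg2a (-0.043) and Atg2b (0.056), which move lipid into the growing membrane, lay on opposite sides of 0. The PI3P-binding proteins Wipi1 (-0.039) and Wipi2 (0.0094) were also near 0, and the 5 expressed probe sets of Wipi1 ran from -0.16 to 0.17. All 5 genes were inside the spread between probe sets, with a median of -0.022 that turned to 0.041 with the mean of their expressed probe sets.

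The conjugation genes were divided, 4 higher and 3 lower, with a median of 0.064. Higher were the enzymes Atg7, which activates both ubiquitin-like proteins (360 on the knockout array and 344 on the wild-type array, 0.064), Atg3, which passes LC3 to lipid (3406 on the knockout array and 3124 on the wild-type array, 0.12), and Atg10, which passes Atg12 to Atg5 (0.088). Atg12, the ubiquitin-like protein itself, had 784 on the knockout array and 703 on the wild-type array (0.15), and its other probe set gave 0.27. The 3 lower genes were Atg5, Atg16l1 and Atg16l2. Atg5 had 538 on the knockout array and 570 on the wild-type array (-0.081), and all 3 of its probe sets were below 0. Atg16l1, which places the conjugate on the membrane, had 340 on the knockout array and 355 on the wild-type array (-0.060), and its relative Atg16l2 had 120 on the knockout array and 135 on the wild-type array (-0.16). Atg16l1 has been reported in other work as a target of miR-223 in mouse microglia. Here its value rests on 1 expressed probe set and 1 array per genotype, and whether it is a target in these cells was not tested. On the brightest probe sets, the differences of the conjugation genes except Atg12 and Atg16l2 were inside the spread between probe sets.

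The Atg4 proteases, which trim LC3 and Gabarap proteins before conjugation and later release them from lipid, were inside the spread between probe sets in all 4 genes. Atg4b, the form most active on LC3, had 421 on the knockout array and 402 on the wild-type array, and its expressed probe sets gave 0.067 and 0.066. Atg4a gave 0.016, Atg4d 0.040 and Atg4c -0.071, with -0.21 on the other probe set of Atg4c.

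The LC3 and Gabarap genes encode the proteins attached to the autophagosome membrane. All 5 were higher on the knockout array (median 0.14), where 49.7% of all expressed genes were higher. Map1lc3a, an LC3 form, had 1156 on the knockout array and 812 on the wild-type array, a ratio of 1.42 and a difference of 0.50. Its second probe set gave 303 on the knockout array and 231 on the wild-type array (0.37). Of all expressed genes 1.12% had a difference as high as that of Map1lc3a. The brighter probe set carries the suffix for probes that can match other transcripts, and the second does not.

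Map1lc3b, the LC3 form most used as a marker of autophagosomes, had 2484 on the knockout array and 2110 on the wild-type array (0.23). Its other expressed probe sets both gave 0.40, with 1940 and 1521 on the knockout array against 1468 and 1150 on the wild-type array. Gabarap had 4184 on the knockout array and 3798 on the wild-type array (0.14), and Gabarapl2 had 1326 on the knockout array and 1204 on the wild-type array (0.14). Gabarapl1 had 499 on the knockout array and 488 on the wild-type array (0.031) on its brighter probe set, which can match other transcripts, and 309 on the knockout array and 243 on the wild-type array (0.33) on the other. No expressed probe set of these 5 genes was below 0. Without the probe sets that can match several transcripts, the median of the 5 genes was 0.33.

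**Figure D2:**
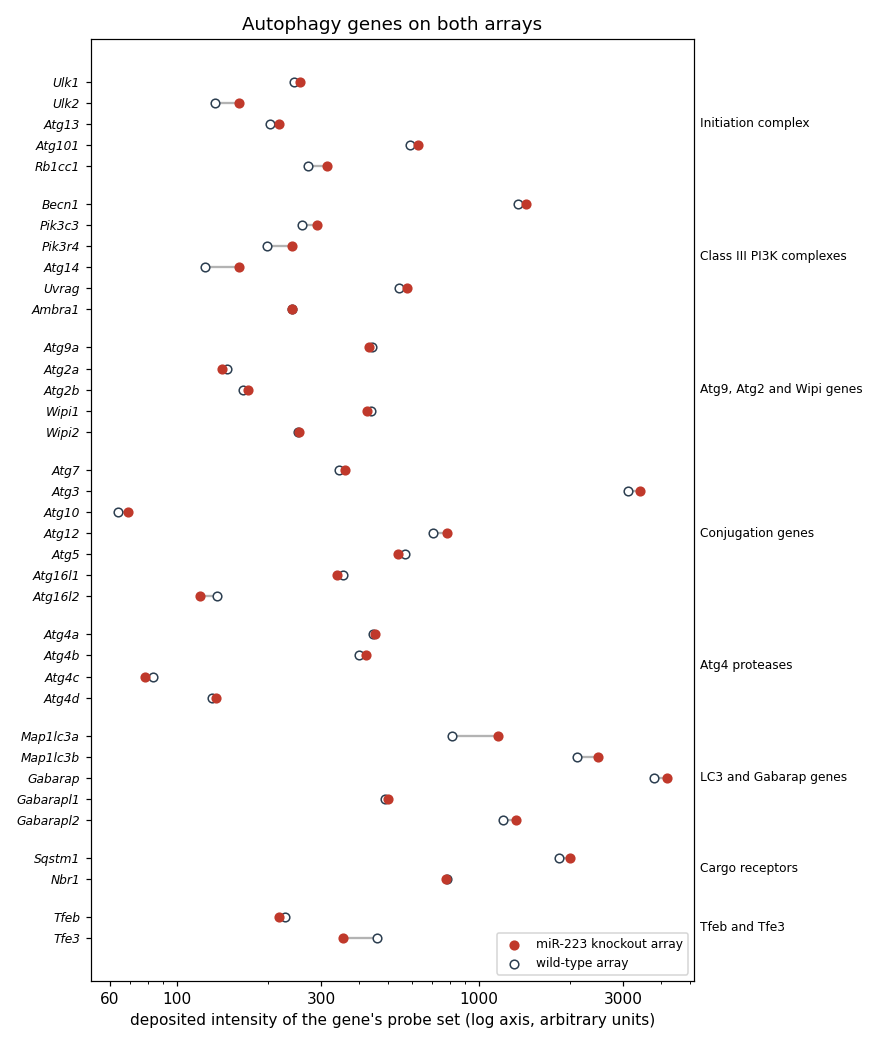
Deposited intensity of each autophagy gene on the miR-223 knockout array (filled points) and the wild-type array (open points), on a log axis and grouped by role; each point is 1 array and there are no error bars. Gaps are widest for Map1lc3a (1156 and 812), Atg14 (161 and 124) and, in the other direction, Tfe3 (356 and 460); positions of different genes are not comparable as levels.

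Cargo receptors bind what is to be degraded and tie it to LC3. Sqstm1, also called p62, had 1998 on the knockout array and 1841 on the wild-type array (0.12) on its single expressed probe set. Nbr1, a related receptor, had 776 on the knockout array and 787 on the wild-type array (-0.019), whereas its dimmer probe set had 208 on the knockout array and 171 on the wild-type array (0.26). Both genes were inside the spread between probe sets on the brighter reading.

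Both transcription factors were lower in the knockout array. Tfe3 had 356 on the knockout array and 460 on the wild-type array, a ratio of 0.773 and a difference of -0.36. Of all expressed genes 1.70% had a difference as low. Tfeb had 218 on the knockout array and 229 on the wild-type array (-0.063), a difference inside the spread between probe sets. A difference as low as that of Tfeb was found in 32.6% of all expressed genes. Each factor rests on 1 expressed probe set, and that of Tfe3 is of a class that can match several transcripts. Of the autophagy genes, Tfe3 and Atg4a (0.016) lie on the X chromosome, as does Mir223. Any part of this location in their values was not tested.

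Tfeb and Tfe3 bind the element with the core CACGTG, a palindrome that reads the same on both strands, so the promoters of the autophagy genes were searched for these letters. RefSeq promoter windows of GRCm38.p6, 250 bases before to 50 after the start of transcription, were at hand for 31 of the 37 genes. The letters were found in 4 of them (Atg3, Atg5, Atg7 and Atg14), or 12.9% of genes, against 8.09% of 27025 genes in the table. Stretches are shown for the 3 conjugation genes, whose motifs lie fully before the start, with the motif in capitals. Atg3 lies at chr16:45158718-45158780, Atg5 at chr10:44268308-44268338 and Atg7 at chr6:114670947-114670986, all on the plus strand.
Atg3: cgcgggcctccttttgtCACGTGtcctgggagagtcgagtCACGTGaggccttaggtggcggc
Atg5: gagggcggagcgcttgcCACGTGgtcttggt
Atg7: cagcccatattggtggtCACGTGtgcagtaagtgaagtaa
The motifs of Atg3 begin 94 and 71 bases before the start, that of Atg5 14 bases and that of Atg7 132 bases before it, and that of Atg14 spans the start. The differences of these 4 genes were 0.12, -0.081, 0.064 and 0.34 in the order Atg3, Atg5, Atg7 and Atg14, and those of Atg3, Atg5 and Atg7 were inside the spread between probe sets. A match of these letters is a description and does not show binding.

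The probe sets of a gene did not always give the same size of difference. Of 18 autophagy genes with several expressed probe sets, 13 had the same sign throughout (72.2%), against 51.9% of 5017 such genes on the arrays. In 14 of the 18 (77.8%) the other probe sets averaged above the brightest one, against 57.4% of all such genes. The median was 0.21 for the other probe sets of these 18 genes and 0.066 for their brightest ones. Over all such genes the corresponding medians were 0.032 and 0.0034. Controls for RNA integrity differed as well. For beta-actin the log2 excess of the 3' over the 5' probe set was 0.25 on the knockout array and 0.33 on the wild-type array. For Gapdh it was 0.062 on the knockout array and 0.15 on the wild-type array. Their part in the differences of the autophagy genes was not tested.

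**Figure D3:**
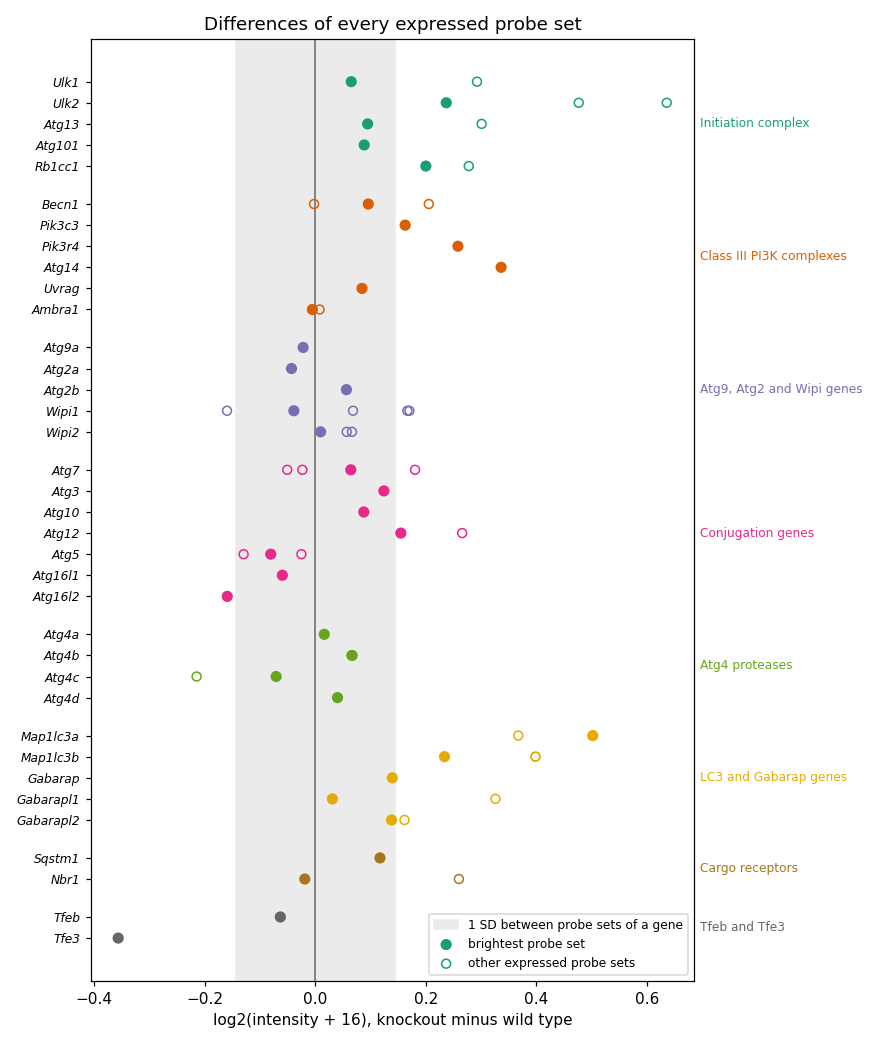
Difference in log2(intensity + 16), knockout minus wild type, of every expressed probe set of the autophagy genes: filled points are the brightest probe set of a gene, open points its other expressed probe sets, and the grey band is 1 SD between probe sets of a gene (0.144). The open points of Ulk2, reaching 0.64, and of Map1lc3b, at 0.40, lie to the right of the filled ones, and Tfe3 lies farthest to the left at -0.36.

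Other genes of the pathway were counted in the same way. Of 76 expressed genes outside the 37, 50 were higher and 26 lower on the knockout array (median 0.048). The share higher was 65.8%, near the 69.4% of the autophagy genes. Over all expressed genes it was 49.7%, which is also the background for the counts of each list below. Of the 76 genes, 1 was at least 1.5-fold higher (1.32%, background 0.691%). That gene was Ctsl, which encodes cathepsin L and has been named as a miR-223 target, at 2619 on the knockout array and 1099.6 on the wild-type array (1.24). At 1.2-fold, 7 were higher (9.21%, background 7.09%) and 1 was lower (1.32%, background 4.09%), shares not far from the background.

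Upstream, mTORC1 and its inhibitor TSC were divided, 4 higher and 4 lower of 8, with a median of -0.039. Akt1s1, an mTORC1 inhibitor, gave 0.24, with 0.024 on its other probe set, and Deptor, another inhibitor, gave -0.23, with probe sets of Deptor up to 0.061. Rheb, the GTPase that activates mTORC1, had 1861 on the knockout array and 2078 on the wild-type array (-0.16). AMPK activates Ulk1 when energy is low, and Stk11 is its activating kinase. On their brightest probe sets the 6 expressed genes of this list were all inside the spread between probe sets. These values ran from Prkag1 (-0.14) to Prkaa1 (0.10), and the other catalytic subunit Prkaa2 was not expressed. Other probe sets of Prkag2 and Prkab1 reached 0.34 and 0.28, and the other probe set of Stk11 gave -0.20.

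Among other cargo receptors 6 of 10 were higher, with a median of 0.19. The largest was Ccpg1, a receptor for the endoplasmic reticulum, at 844 on the knockout array and 570 on the wild-type array (0.55), with 0.49 on its second probe set. Retreg1, which shapes and delivers the same organelle, gave 0.30, with 0.17 on its second probe set. Wdfy3, a scaffold for aggregates, gave 0.25, with its 4 expressed probe sets running down to -0.039. Sec62, another receptor for the endoplasmic reticulum, was lower (-0.15), with all 5 of its expressed probe sets below 0.

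Early factors were higher in 9 of 12. Trp53inp2, a nuclear partner of LC3, had 859 on the knockout array and 677 on the wild-type array, and both probe sets gave about the same difference (0.34 and 0.33). Sh3glb1, a membrane-curving partner of Uvrag, gave 0.21. Wdr45b, a relative of the Wipi proteins, was lower, at 658 on the knockout array and 882 on the wild-type array (-0.42), on 1 probe set.

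The fusion machinery had 8 of 14 higher, with a median of 0.053. Tecpr1, a tether of autophagosomes and lysosomes, gave 0.30, Vps11, a core subunit of the HOPS tether, 0.29, and the tether Epg5 0.24, and the lowest was Ykt6, a SNARE of autophagosome fusion (-0.12). The other probe sets of Tecpr1 and Vps11 reached down to 0.054 and -0.0063.

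Among 16 other regulators 11 were higher, with a median of 0.034. Foxo3, a transcription factor that induces autophagy genes and has been named as a miR-223 target, had 483 on the knockout array and 393 on the wild-type array (0.28), with 0.31 on its second probe set. Zkscan3, a repressor of autophagy genes, gave -0.21, with probe sets up to 0.065. Foxo1, at 89 on the knockout array and 74 on the wild-type array, gave 0.21, with probe sets up to 0.43. Of 10 lysosomal genes 8 were higher, with a median of 0.18. This list, which holds Ctsl, was chosen with earlier results of these data known, as were the others. After Ctsl came the proton pump subunit Atp6v0d1 (0.26) and the calcium channel Mcoln1 (0.24).

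**Figure D4:**
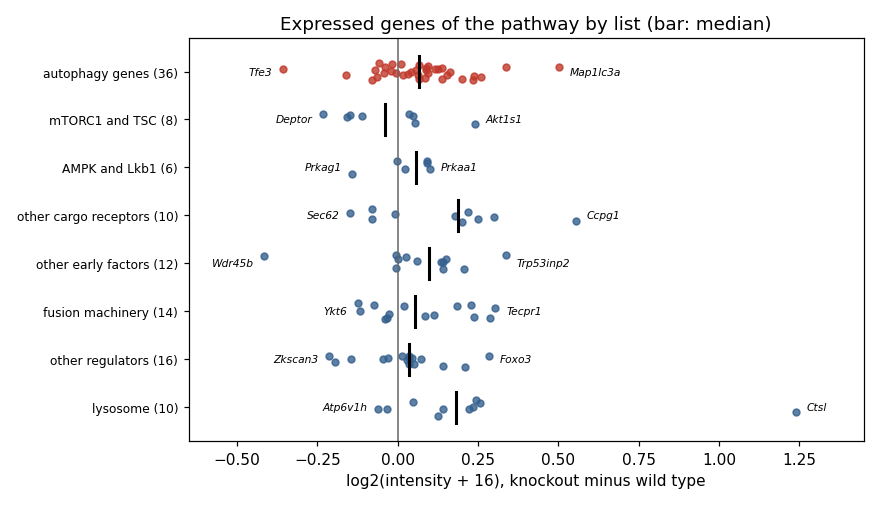
Difference in log2(intensity + 16), knockout minus wild type, of expressed genes in the autophagy set (top) and 7 other lists of the pathway, 1 point per gene with a black bar at the median of each list and the number of genes in brackets. Medians run from -0.039 (mTORC1 and TSC) to 0.19 (other cargo receptors), and Ctsl at 1.24 stands apart.

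Markers of cell types other than neutrophils were detected as well, and in bulk RNA fewer cells of a type and less RNA per cell cannot be told apart. The sums below are over all measured markers of a list, including those not expressed, while the counts are of expressed markers. Of 13 measured neutrophil markers all were expressed and 12 were higher, with a summed intensity of 187094 on the knockout array and 177132 on the wild-type array. All 10 expressed markers of mast cells and basophils were lower, with sums of 4709 on the knockout array and 6741 on the wild-type array, and Mcpt4 was not expressed. Sums for monocytes and macrophages were 8333 on the knockout array and 7117 on the wild-type array (8 of 10 higher, with Mrc1 and C1qa not expressed). For megakaryocytes they were 1258 on the knockout array and 1960 on the wild-type array (5 of 6 lower, from Ppbp at -1.06 to Itgb3 at 1.34). For eosinophils they were 1006 on the knockout array and 1233 on the wild-type array (3 of 4 lower, with Il5ra and Ccr3 not expressed). Eosinophil markers ran from Prg3 (-0.92) to Siglecf (0.92). Sums of dendritic cell markers were 1225 on the knockout array and 1420 on the wild-type array (5 of 6 lower, with Itgax not expressed), and all 6 expressed progenitor markers were higher (8977 on the knockout array and 8085 on the wild-type array). B cell markers had sums of 1251 on the knockout array and 830 on the wild-type array (2 of 2 expressed genes higher, with Cd79a and Ms4a1 not expressed). Most of both sums came from Ighm, at 1042 on the knockout array and 662 on the wild-type array. Its probe sets ran from -0.14 to 0.94, and Cd79b gave 0.43. T and NK cell markers had 1387 on the knockout array and 1103 on the wild-type array (3 of 4 lower, with Cd3e and Cd3g not expressed). Most of both sums came from Nkg7, at 1181 on the knockout array and 847 on the wild-type array (0.47). Cd3d was the lowest (-0.81). Erythroid markers had 164 on the knockout array and 155 on the wild-type array (1 of 2 lower, with Hba-a1 and Slc4a1 not expressed). Added spike-in RNA was lower on the knockout array, with medians of -0.11 over 18 hybridization controls and -0.17 over 24 poly-A controls, which is more than the median of the autophagy genes in size. The part of these differences in the values of the autophagy genes was not tested.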

How the data were processed

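RNA of cultured neutrophils was measured on 2 Affymetrix 3' arrays, 1 per genotype, which the labels name. Total RNA came from a Trizol extraction and was turned into biotinylated cRNA with a 3' IVT kit, per the labels' protocols. Each probe set has 1 linear intensity per array as deposited by the authors, and for its summarization and normalization a method was not given in the sources used here. Values were used as deposited and analysed as log2(intensity + 16), which shrinks the differences of dim genes.

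Probe sets annotated for 1 gene (34945 of 45101) were kept, with symbols updated by Entrez identifier through RefSeq GRCm38.p6 for 34741 of them. A gene took its brightest probe set. Differences are knockout minus wild type, counted at 1.5-fold. All autophagy genes could be named. Of each further pathway list, up to 3 expressed genes with the largest differences and any at 1.5-fold were named. Of each marker list, genes not expressed were named. Of the megakaryocyte, eosinophil, B cell and T and NK cell lists, the genes with the lowest and highest differences were named too. The members, lists and rules were chosen with earlier results of these data known. Sec62, Ykt6, Prkaa2, Prkab1 and Stk11 were named after their values were seen. With 1 array per genotype there is no test. The calculation was tested on simulated data with planted 2-fold changes only, a size that no autophagy gene reached. Python 3.11.15, pandas 2.3.3 and statsmodels 0.14.6 were used.

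Other settings tried were quantile normalization, centring of each column on its median, subtraction of a loess curve (span 0.3), pseudocounts of 1 and 64, an expression cut at the 75th percentile or none, averaging all probe sets of a gene, leaving out probe sets whose suffix (_a, _s or _x) marks probes that can match several transcripts, and thresholds of 1.2-fold and 2-fold. The mean of expressed probe sets was added after seeing the data.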

Additional observations from a re-analysis of the deposited data

How the results depend on the processing

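The number of autophagy genes at 1.5-fold or more was 0 in each direction under every alternative that kept this threshold, and 0 at 2-fold. At 1.2-fold it was 2 higher and 1 lower. The higher count at this threshold ran from 1 (pseudocount 64, or the 75th percentile cut) to 4 (without probe sets that can match several transcripts, or the mean of expressed ones), and the lower count was 1, or 0 without those probe sets. The median over the autophagy genes was above 0 under all 10 alternatives to the values used and lowest, at 0.032, with quantile normalization, which put all expressed genes at -0.017. Without an expression cut this median could not change, because all 36 genes already counted as expressed. Of 36 genes, 23 were above 0 with quantile normalization and with loess, and 28 with the mean of expressed probe sets. At the 75th percentile cut, 20 of 28 were. Group medians moved as follows, and the cause was not tested. The initiation complex stood at 0.17 with the mean of all probe sets and at 0.20 with that of expressed ones, and the cargo receptors at 0.16 with the mean of all. Without probe sets that can match several transcripts, LC3 and Gabarap genes stood at 0.33, and Tfeb and Tfe3 at -0.063 because Tfe3 had no other probe set. Under the same setting the conjugation genes stood at 0.019 over 6 genes (0.032 over 7 with quantile normalization) and the cargo receptors had no value. Atg4 proteases turned to -0.00075 with quantile normalization, and Atg9, Atg2 and Wipi genes to 0.041 with the mean of expressed probe sets. Of 345 values of single genes, 340 stayed within the spread between probe sets (SD 0.144) of the value given. None that was past this spread changed sign. Part of the 345 values could not move. An expression cut does not alter the value of a gene, and averaging does not alter a gene with 1 probe set. The 5 that moved further were of Gabarapl1, Map1lc3b and Ulk2, all higher. Ambra1, Wipi1, Wipi2, Atg2b, Atg4a and Nbr1, inside this spread, changed sign under at least 1 alternative. No paired analysis was possible because each genotype has 1 array.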
